A study of Danio rerio with 8 samples.

Results

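Liver RNA of zebrafish (Danio rerio) labelled 34 °C, day 28 was set against liver RNA labelled 18 °C, day 28. Each group holds 2 RNA samples, replicates 1 and 2, so the comparison takes 4 of the 7 RNA samples in the series. The members were chosen by the temperature, day and replicate in the array labels. The remaining samples are 2 of liver at 26 °C on day 28 and 1 of liver at 26 °C on day 4. The 7 samples were joined in a loop of 8 Agilent 2-colour arrays, on each of which a Cy5-labelled and a Cy3-labelled RNA bind the same probes. The series was made to choose probes for a custom array by their response to temperature. The labels call the replicates biological, and they give no strain, age, sex or number of fish for any of them. The 34 °C and 18 °C samples share tissue, day and platform, and the labels name no agent or allele.

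Zebrafish take the temperature of the water, so their liver enzymes and membranes work at whatever temperature surrounds them. The liver makes plasma proteins, yolk precursors and bile, and it synthesises, elongates, desaturates and burns fatty acids. In fish, cooling is commonly met by membranes with more unsaturated lipid, which desaturases, elongases and phospholipid acyltransferases help to build.

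In this comparison 348 of 35434 features passed the test, which is a background of 0.982% (limma, adjusted p below 0.05). A feature is the mean over the probes of 1 gene symbol, or a single probe with no symbol. Of the 348, 172 were higher and 176 were lower at 34 °C. Among 15548 genes with a symbol, 279 passed (1.79%), 128 of them higher at 34 °C (0.823%) and 151 lower (0.971%). Outside the egg, hepatocyte and vitellogenin marker lists, named genes with the largest positive differences include the fatty acid genes elovl2, fabp7a and fads2. The vesicle transport gene rab1aa and the peroxide-removing prdx2 are others. Those with the largest negative differences outside these lists include the mRNA tail-trimming gene parn, the ubiquitin hydrolase gene uchl1 and the acyltransferase gene lpcat4. Of the egg list, nanog (-2.91) and zp3a.1 (-2.68) had larger negative differences than parn (-2.61). Values are log2 differences, 34 °C minus 18 °C, with limma's moderated standard error (SE, n = 2 against 2). The deposited ratios were read as Cy5 over Cy3, which the sources used here do not state. Were they Cy3 over Cy5, all signs given here would turn, while sizes and p-values would stay.

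The calls rest on few samples. Without 34 °C replicate 1 limma passed 0 features, with 4968 at an unadjusted p below 0.05, and without 34 °C replicate 2 it passed 112. Without 18 °C replicate 1 it passed 2, without 18 °C replicate 2 it passed 0 (4490 unadjusted), and without either 26 °C replicate it passed 0 (4312 unadjusted). Leaving out single arrays gave 0 to 15 calls for 7 of the 8, and 246 without the array of 26 °C replicate 2 over 34 °C replicate 1. The direction held more often than the call. All 82 named genes that passed kept their sign under each of 24 alternatives, although each stayed past the threshold in only 4 to 9 of them. The kept signs were largely fixed in advance. In all 348 calls both 34 °C samples lay on 1 side of both 18 °C samples. Leaving out 1 of those samples from the group comparison therefore could not turn a sign. Leaving out 26 °C samples or the day 4 sample there did not change the difference. Where called genes are described as apart below, that holds for every call and is no further support.

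**Figure D1:**
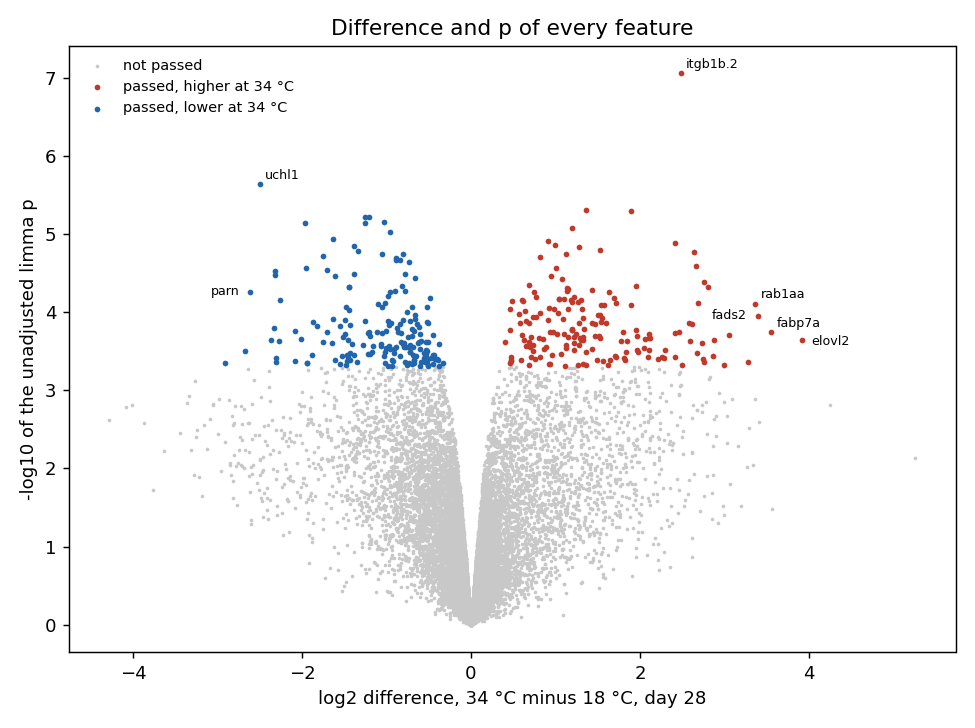
Each point is 1 of 35434 features, with the log2 difference of 34 °C minus 18 °C on day 28 on the horizontal axis and the negative log10 of the unadjusted limma p on the vertical axis. Red points (172) passed and were higher at 34 °C, blue points (176) passed and were lower at 34 °C, and grey points did not pass; itgb1b.2 has the smallest p.

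Positive differences that passed had a median of 1.30 and ran from 0.41 to 3.91, and 122 of the 172 were at least 2-fold. Negative ones had a median size of 0.96, with sizes from 0.33 to 2.91, and 81 of the 176 were at least 2-fold. Large differences were not always called. Of 337 features that differed by at least 4-fold, 53 passed, and their median SE was 0.228, against 0.535 for those that did not pass. Over all 35434 features the median difference was 0.00, and 50.6% were positive.

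Fatty acid synthesis genes were among the positive calls. The level of elovl2, whose product lengthens long polyunsaturated fatty acids, was 2.39 and 1.55 in the 34 °C samples, against -1.63 and -2.26 in the 18 °C samples. A level is a log2 value relative to the mean of the 7 samples. The elovl2 groups lay far apart, with a difference of 3.91 ± 0.38 (limma adjusted p = 0.0414). The desaturase fads2, which puts double bonds into the same fatty acids, had 1.82 and 2.24 at 34 °C, against -1.00 and -1.74 at 18 °C. Both 34 °C samples stood well above both 18 °C samples for fads2 too, by 3.40 ± 0.28 (adjusted p = 0.0386). The elongase elovl6, which lengthens saturated and monounsaturated fatty acids, had 0.58 and 0.92 at 34 °C, against -1.70 and -1.62 at 18 °C. Its replicates were close together, and its difference was 2.41 ± 0.12 (adjusted p = 0.0272).

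Carriers and activators of fatty acids stood beside them. The fatty acid-binding protein gene fabp7a had 1.41 and 1.09 at 34 °C, against -1.84 and -2.75 at 18 °C, a difference of 3.55 ± 0.33 (limma adjusted p = 0.0408). The peroxisomal fatty acid transporter gene abcd3a had 1.83 and 1.09 at 34 °C, against -1.75 and -1.42 at 18 °C, a difference of 3.05 ± 0.28. The acyl-CoA synthetase gene acsl4a, whose mammalian product prefers long polyunsaturated fatty acids, had 1.01 and 0.93 at 34 °C, against -1.00 and -1.63 at 18 °C. Groups did not overlap in any of these 3 genes, as in every call. The wider pair was at 18 °C for fabp7a and acsl4a and at 34 °C for abcd3a. The gene mid1ip1b, a relative of a mammalian activator of acetyl-CoA carboxylase, differed by 2.12 ± 0.20. The lipoprotein gene apoa4b.1 differed by 2.75 ± 0.30. The lipid droplet protein gene cidec, whose product fuses droplets in mammals, had 0.51 and 0.42 at 34 °C, against -0.70 and -0.67 at 18 °C. It differed by 1.15 ± 0.11, with both replicate pairs narrow.

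The list of lipid droplet and triglyceride genes had 19 of 28 measured members positive, and 2 passed, acsl4a and cidec, both higher. The share called was 7.14%, from 2 genes, against 1.79% of all genes with a symbol. The list median was 0.08, against -0.01 over all genes with a symbol. Phospholipid synthesis and remodelling had 27 of 57 members positive, with 1 call in each direction (3.51% called) and a median of -0.001. The call upward was agpat4, an acyltransferase of the path to phosphatidic acid, with 0.79 and 0.54 at 34 °C, against -0.63 and -0.66 at 18 °C. The call downward was lpcat4, which reacylates lysophospholipids. It had -0.83 and -1.53 at 34 °C, against 1.09 and 1.17 at 18 °C, a difference of -2.31 ± 0.25 (limma adjusted p = 0.0477). The acyltransferases thus passed in opposite directions, and the 34 °C pair of lpcat4 was its wider one. Sphingolipid synthesis had 0 of 29 members past the threshold, and its smallest p was that of cers5, a ceramide synthase gene, at -0.62 (adjusted p = 0.0839).

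Redox genes were among the positive calls as well. The peroxiredoxin gene prdx2, which removes peroxides, had 1.30 and 1.75 at 34 °C, against -1.05 and -1.66 at 18 °C, a difference of 2.88 ± 0.28. The thioredoxin gene txnb, which hands electrons to peroxiredoxins, had 0.92 and 1.26 at 34 °C, against -1.48 and -1.67 at 18 °C, a difference of 2.66 ± 0.16 (limma adjusted p = 0.0299). The groups of both genes were well separated. The glutathione peroxidase gene gpx1a had 1.82 and 1.12 at 34 °C, against -0.78 and -1.28 at 18 °C, a difference of 2.50 ± 0.29. Of 33 measured selenoproteins and selenium-handling genes, 22 were positive and 3 passed, all higher. The share called was 9.09%, from 3 genes, against 1.79% of all genes with a symbol. The list median was 0.25, which turned to -0.24 with the egg marker covariate described below. The 3 were gpx1a, selenow1 (1.53 ± 0.13) and selenou1a (1.51 ± 0.14). For selenou1a the 34 °C samples had 0.78 and 0.86, against -0.48 and -0.90 at 18 °C. All 3 of its probes were positive, from 0.25 to 2.26.

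Nucleotide breakdown and one-carbon transport also held large positive differences. The mitochondrial folate carrier gene slc25a32a had 1.90 and 1.36 at 34 °C, against -1.19 and -1.07 at 18 °C, a difference of 2.76 ± 0.18 (limma adjusted p = 0.034). The purine nucleoside phosphorylase gene pnp4b had 1.51 and 1.14 at 34 °C, against -1.00 and -1.57 at 18 °C, a difference of 2.61 ± 0.23. The gene dpydb, whose product opens the breakdown of pyrimidines, had 1.32 and 1.19 at 34 °C, against -0.67 and -1.34 at 18 °C, a difference of 2.25 ± 0.24. In all 3 the groups were clearly apart. The wider list of purine and pyrimidine genes was balanced, with 34 of 70 positive and a median of -0.01. Its share called was 4.29%, against 1.79% of all genes with a symbol. The list's remaining call was downward. The ribonucleotide reductase gene rrm1, which makes deoxynucleotides, had -0.61 and -0.49 at 34 °C, against 0.38 and 0.66 at 18 °C. All 4 of its probes were negative, from -2.33 to -0.06.

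Other large positive differences came from separate processes. The gene rab1aa, a small GTPase of transport from the endoplasmic reticulum to the Golgi, had 1.93 and 1.19 at 34 °C, against -1.86 and -1.75 at 18 °C, a difference of 3.36 ± 0.26 (limma adjusted p = 0.0348). The integrin gene itgb1b.2, an adhesion receptor subunit, had 1.15 and 1.13 at 34 °C, against -1.30 and -1.38 at 18 °C. Its replicates nearly coincided, which gave it the smallest adjusted p of all features (2.48 ± 0.04, adjusted p = 0.0031). The glucuronosyltransferase gene ugt5c2, of a drug-conjugating family in fish, differed by 2.60 ± 0.25. The ribosome assembly GTPase gene gtpbp4 differed by 2.58 ± 0.22, the membrane protein gene itm2bb by 2.42 ± 0.22 and the nucleosome-binding protein gene hmgn2 by 2.21 ± 0.24. Each of these 4 genes had both 34 °C samples above both 18 °C samples.

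**Figure D2:**
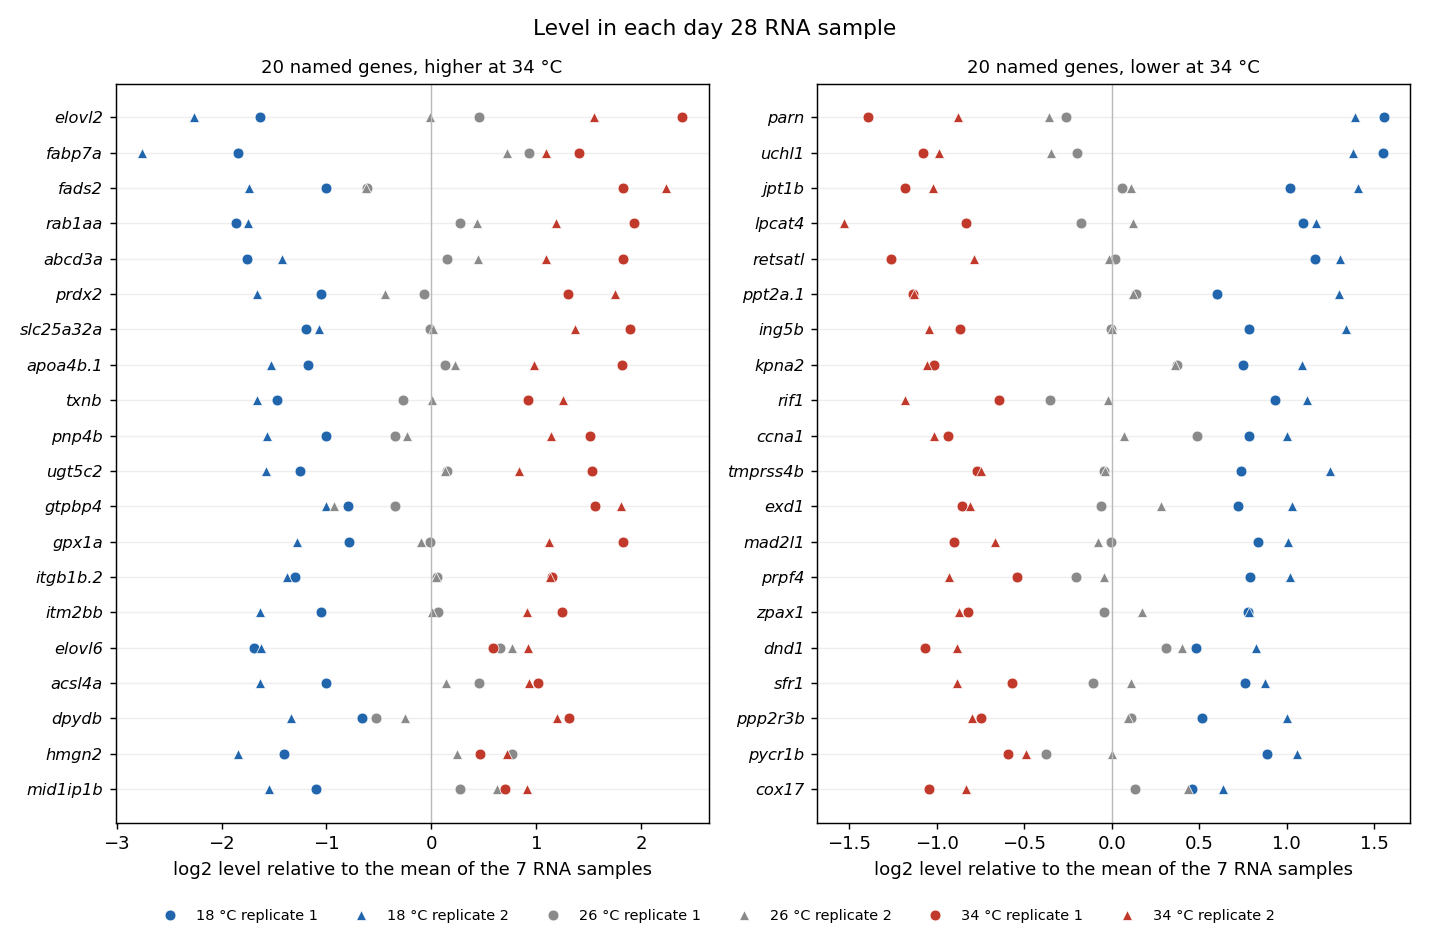
Levels of the 20 named genes with the largest positive difference (left) and the 20 with the largest negative difference (right) in the 6 RNA samples of day 28; the horizontal axis is the log2 level relative to the mean of the 7 RNA samples, colours mark temperature and shapes mark replicates. Both 34 °C points lie right of both 18 °C points in the left panel and left of them in the right panel. The choice of genes required this, and it left out clone names and the egg, hepatocyte and vitellogenin lists. The gene elovl6 has both 26 °C points between its 34 °C ones, and gtpbp4 has 1 of its 26 °C points between the 18 °C ones.

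Genes of RNA processing and protein turnover were among the negative calls. The gene parn, whose product trims the poly(A) tails of mRNA, had -1.40 and -0.88 at 34 °C, against 1.55 and 1.39 at 18 °C, a difference of -2.61 ± 0.18 (limma adjusted p = 0.034). The ubiquitin hydrolase gene uchl1 had -1.08 and -0.99 at 34 °C, against 1.55 and 1.38 at 18 °C. Both pairs of uchl1 were tight, and it fell by 2.50 ± 0.09 on the log2 scale (adjusted p = 0.0272). The splicing factor gene prpf4, a part of the U4/U6 particle, had -0.54 and -0.93 at 34 °C, against 0.79 and 1.02 at 18 °C. The importin gene kpna2, which carries proteins into the nucleus, had -1.02 and -1.06 at 34 °C, against 0.75 and 1.09 at 18 °C. Neither gene's groups overlapped, and kpna2 had all 3 of its probes negative, with a difference of -1.96 ± 0.12 (adjusted p = 0.0304).

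Whole lists of these processes leaned the same way with few calls. The share called was 1.92% for nuclear transport and 1.47% for the mitochondrial ribosome, near the 1.79% of all genes with a symbol. It was 2.99% for mRNA decay, 5.88% for ubiquitin-conjugating enzymes, 2.08% for deubiquitinating enzymes and 4.17% for F-box proteins, from 1 or 2 calls each. Of 52 nuclear pore and nuclear transport genes, 45 were negative and 1 passed, kpna2, with a list median of -0.26. Of 67 genes of mRNA deadenylation and decay, 46 were negative and 2 passed, parn and zfp36l2, with a median of -0.11. The product of zfp36l2 binds AU-rich elements and speeds mRNA decay. Its levels were -0.33 and -0.51 at 34 °C, against 0.59 and 0.46 at 18 °C. Of 34 ubiquitin-conjugating enzyme genes, 26 were negative and 2 passed, ube2z (-1.03 ± 0.11) and ube2wb (-0.45 ± 0.04), with a median of -0.16. One of the 4 probes of ube2wb was positive. Of 48 deubiquitinating enzyme genes, 36 were negative and 1 passed, uchl1, with a median of -0.05. F-box proteins, which select targets for ubiquitin ligases, had 38 of 48 members negative and a median of -0.07. Their 2 calls were opposed, fbxo9 at 0.85 ± 0.08 and fbxo43, which is also in the egg list, at -2.28 ± 0.22. The mitochondrial ribosome list had 53 of 68 members negative and a median of -0.28, with 1 call, mrps6 (-1.43 ± 0.16). For each of these 6 lists the median kept its sign under all alternatives, although several of these could not change it. Leaving 26 °C or day 4 samples out of the group comparison, for example, left the differences as they were. Over all genes with a symbol 45.5% were positive, so some lean to the negative side was general.

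Some genes of cell division and DNA maintenance were also called as lower at 34 °C. The spindle checkpoint gene mad2l1 had -0.90 and -0.67 at 34 °C, against 0.83 and 1.01 at 18 °C, a difference of -1.71 ± 0.11 (limma adjusted p = 0.0309). The cyclin gene ccna1, which in mice acts mainly in germ cells, had -0.93 and -1.02 at 34 °C, against 0.78 and 1.00 at 18 °C, a difference of -1.87 ± 0.16. Samples of the 2 temperatures were well apart in both genes. The gene rif1, which sets replication timing and guards broken ends, differed by -1.94 ± 0.22, and sfr1, a partner in homologous recombination, by -1.55 ± 0.14. The DNA ligase gene lig1, which joins replication fragments, had -0.14 and -0.16 at 34 °C, against 0.39 and 0.32 at 18 °C, a small difference with narrow pairs (-0.51 ± 0.04). Of 75 DNA repair genes, 54 were negative and lig1 was the 1 that passed, with a median of -0.12. The 1 call is 1.33% of the list, below the 1.79% of all genes with a symbol.

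Chromatin genes gave calls in both directions. Of 109 measured chromatin modifiers and remodellers, 73 were negative, 2 passed upward and 3 downward, with a median of -0.06. The share called was 4.59%, against 1.79% of all genes with a symbol. The upward calls were the nucleosome-binding proteins hmgn2 and hmgn3 (0.71 ± 0.08). Among the downward ones were the Polycomb protein gene cbx2, at -0.43 and -0.35 at 34 °C against 0.53 and 0.36 at 18 °C, and the arginine methyltransferase gene prmt3 (-0.63 ± 0.06). The gene ing5b, whose relatives sit in histone acetyltransferase complexes, was outside the list and differed by -2.02 ± 0.19. It had -0.87 and -1.04 at 34 °C, against 0.78 and 1.34 at 18 °C. Histone genes themselves gave 0 calls among 12, and the smallest p was that of hist2h2l at 1.07 (limma adjusted p = 0.0834).

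Several germline genes stood among the largest negative differences although they are in no marker list used here. The gene dnd1, an RNA-binding protein of primordial germ cells, had -1.07 and -0.88 at 34 °C, against 0.48 and 0.83 at 18 °C, a difference of -1.63 ± 0.14. The gene zpax1, of the fish egg envelope family, had -0.82 and -0.87 at 34 °C, against 0.78 and 0.79 at 18 °C, a difference of -1.63 ± 0.08 (limma adjusted p = 0.0272). The gene exd1, a partner of the piRNA pathway in mice, had -0.85 and -0.81 at 34 °C, against 0.72 and 1.03 at 18 °C. All 3 had both 34 °C samples below both 18 °C samples. The 3 probes of zpax1 were all negative, from -2.35 to -0.26.

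Markers of egg and liver cells moved with the temperature groups. Of 40 oocyte and egg markers, 39 were negative and 8 passed, all lower, with a median of -2.29. These 8 of 40 are a far larger share than the 1.79% called among all genes with a symbol. Of all genes with a symbol, 0.971% were called lower. The sample medians of the egg markers were -1.05 and -0.75 at 34 °C, against 0.77 and 1.60 at 18 °C. Thus 18 °C replicate 2 had the highest egg marker median. Examples are nanog, a pluripotency factor stored as RNA in fish eggs (-2.91 ± 0.33), the egg envelope gene zp3a.1 (-2.68 ± 0.28) and 42sp43, of an oocyte storage particle (-2.31 ± 0.26). Of 33 hepatocyte markers, 32 were positive and 1 passed (3.03%), the transferrin gene tfa (2.28 ± 0.25), with a median of 1.42. Their sample medians were 1.16 and 0.28 at 34 °C, against -0.38 and -0.95 at 18 °C. Of 8 vitellogenin and oestrogen response genes, 8 were positive and 1 passed (12.5%), the oestrogen receptor gene esr1. Its levels were 0.94 and 0.66 at 34 °C, against -0.47 and -0.41 at 18 °C. The hepatocyte and vitellogenin shares rest on 1 gene each, and stand against 1.79% of all genes with a symbol. In bulk RNA, fewer cells of a type and less RNA per cell cannot be told apart.

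Exocrine pancreas markers had 21 of 24 members positive, 0 called, and a median of 1.76. Their sample medians were 0.83 and 0.30 at 34 °C, against -1.48 and -0.33 at 18 °C. At 26 °C they were 0.78 and -1.33 on day 28 and 1.05 on day 4. These markers thus also differed widely between replicates of 1 temperature. The smallest p was that of the amylase gene amy2a, which differed by 2.86 with a large error (SE 0.83, limma adjusted p = 0.225). With the egg marker median per sample as a covariate, limma passed 0 features (lowest adjusted p = 0.389, 2470 at an unadjusted p below 0.05), and the hepatocyte median turned to -0.35. The covariate followed the temperature groups, and with group terms in the fit its slope came only from gaps within replicate pairs. That setting thus cannot separate egg RNA from temperature. The part of egg, hepatocyte and pancreas RNA in the differences above was not tested. The table holds ratios without signal strength, so whether a liver marker was present at all could not be checked. Markers of erythrocytes, lymphocytes, bile duct, endothelium, stellate cells and muscle had medians from -0.01 to 0.07 and 0 calls. Macrophage and neutrophil markers had a median of 0.15 and intestine markers one of 0.38, also with 0 calls.

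**Figure D3:**
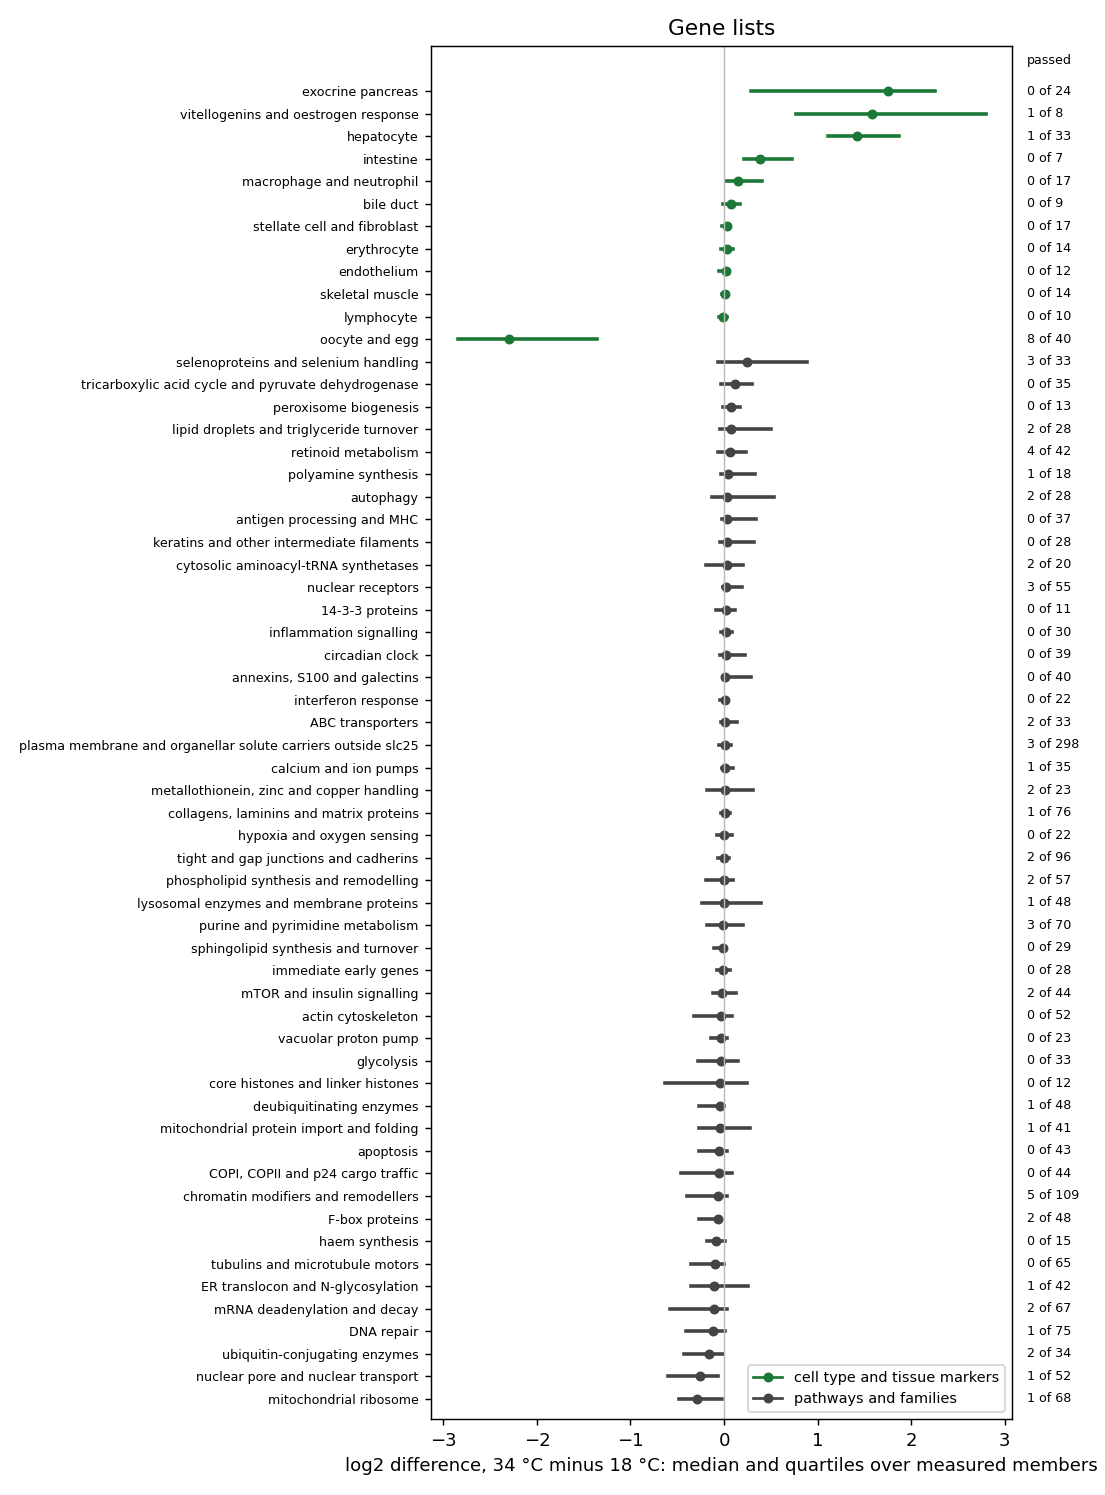
Median (point) and quartiles (line) of the log2 difference, 34 °C minus 18 °C, over the measured members of 12 lists of cell type and tissue markers (green, upper block) and 47 lists of pathways and gene families (grey, lower block); the numbers at the right give the members that passed of those measured. Oocyte and egg markers lie at -2.29 and exocrine pancreas, vitellogenin and hepatocyte markers between 1.42 and 1.76, while every pathway or family median lies between -0.28 and 0.25.

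Retinoid genes were called in both directions. Of 42 measured members, 28 were positive, 3 passed upward and 1 downward. That is 9.52% called, against 1.79% of all genes with a symbol, and the list median was 0.06. That median turned, to as low as -0.03, without either array of the 26 °C day 4 sample or without the array of 26 and 18 °C replicate 2. The retinol dehydrogenase gene rdh1 had 1.35 and 1.29 at 34 °C, against -0.38 and -0.92 at 18 °C, a difference of 1.97 ± 0.19 (limma adjusted p = 0.0411). The carotenoid-cleaving oxygenase gene bco1l differed by 0.92 ± 0.07, and the retinoid X receptor gene rxrbb by 0.81 ± 0.08. Opposed to them was retsatl, a relative of retinol saturase, at -1.26 and -0.79 at 34 °C, against 1.16 and 1.31 at 18 °C, a difference of -2.26 ± 0.17. The groups did not overlap in any of the 4. Of 55 nuclear receptor genes, 38 were positive, with a median of 0.02. The share called was 5.45%, against 1.79% of all genes with a symbol, from 3 genes, all higher, with rxrbb counted in both lists. Besides rxrbb they were nr1h3, the oxysterol receptor LXR alpha (0.66 ± 0.07), and the orphan receptor gene nr2f1a (0.76 ± 0.08).

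Transporter genes of the plasma membrane and of organelles were mostly near 0. They were not limited to those expressed in liver, and without signal strength an absent RNA cannot be told from an unchanged one. Of 298 solute carriers outside the mitochondrial family, 172 were positive and 3 passed, with a median of 0.01. The share called was 1.01%, below the 1.79% of all genes with a symbol. The zinc importer gene slc39a3 (1.49 ± 0.17) and the amino acid transporter gene slc43a1b (1.05 ± 0.08) were higher at 34 °C. The gene slc2a15b, of the glucose transporter family, had -0.27 and -0.29 at 34 °C, against 0.38 and 0.38 at 18 °C, with both pairs nearly equal. Of 33 ABC transporter genes, 20 were positive and 2 passed (6.06%), abcd3a and abcc2. The product of abcc2 exports conjugates into bile. Its levels were 0.23 and 0.17 at 34 °C, against -0.47 and -0.33 at 18 °C. Among metal-handling genes, slc39a3 was opposed by cox17, a copper chaperone of cytochrome c oxidase. It had -1.04 and -0.84 at 34 °C, against 0.46 and 0.64 at 18 °C, a difference of -1.49 ± 0.14. The sodium pump subunit gene atp1b3b had all 4 probes negative and differed by -1.47 ± 0.16.

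Among genes of translation and growth control, the phenylalanyl-tRNA synthetase gene farsb had 0.54 and 0.53 at 34 °C, against -0.41 and -0.53 at 18 °C, a difference of 1.00 ± 0.06 (limma adjusted p = 0.0304). The 2 farsb probes gave 0.07 and 1.94, so its mean rests mainly on 1 of them. The synthetase scaffold gene aimp2 differed by 1.29 ± 0.12. Both belong to the 20 cytosolic aminoacyl-tRNA synthetase genes, 11 of which were positive. In the mTOR and insulin list of 44, the translation repressor gene eif4ebp2 was higher (0.73 ± 0.07) and the mTOR activator gene rheb lower (-0.87 ± 0.08). These calls were 4.55% of the list. For eif4ebp2 the 2 probes gave 0.02 and 1.45. The antizyme gene oaz2a, which restrains polyamine synthesis, had 0.74 and 0.61 at 34 °C, against -0.39 and -0.47 at 18 °C. The proline synthesis gene pycr1b went the other way, with -0.59 and -0.49 at 34 °C against 0.89 and 1.06 at 18 °C.

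Organelle and surface genes were called singly too. The autophagosome genes map1lc3a (1.31 ± 0.10) and gabarapa (0.47 ± 0.05) were both higher at 34 °C. They were the calls among 28 autophagy genes (7.14%, against 1.79% of all genes with a symbol). Of the 28, 17 were positive and 11 negative, with differences from -2.51 to 1.74. The list median was 0.03, which turned without either array of the 26 °C day 4 sample. The 2 probes of gabarapa disagreed in sign. The translocon-associated gene ssr2, which assists entry of proteins into the endoplasmic reticulum, had 1.03 and 0.79 at 34 °C, against -0.90 and -0.71 at 18 °C, a difference of 1.71 ± 0.13. The mitochondrial protease gene afg3l2 differed by 0.61 ± 0.05. The lysosomal thioesterase gene ppt2a.1 had -1.14 and -1.13 at 34 °C, against 0.60 and 1.30 at 18 °C, with its wider pair at 18 °C. The cadherin gene cdh2 was higher (1.31 ± 0.13) and the connexin gene gjc4b lower (-1.44 ± 0.13), the 2 calls among 96 junction genes (2.08%). The 3 cdh2 probes ran from 0.05 to 2.18. The matrix proteoglycan gene bgnb differed by 0.68 ± 0.07 and was the call among 76 matrix genes (1.32%, against 1.79% of all genes with a symbol).

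The remaining genes of the negative side have varied roles. The gene jpt1b had -1.18 and -1.03 at 34 °C, against 1.02 and 1.41 at 18 °C, a difference of -2.32 ± 0.14 (limma adjusted p = 0.0309). The membrane serine protease gene tmprss4b differed by -1.75 ± 0.17 and the phosphatase 2A subunit gene ppp2r3b by -1.53 ± 0.17. In each of these 3 genes the 34 °C samples lay close together and below both 18 °C samples.

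Of the 47 pathway and family lists, 27 had at least 1 member past the threshold and 20 had none. Glycolysis had 0 calls among 33 members, and its smallest p was that of tpi1a, triosephosphate isomerase, at -1.71 (limma adjusted p = 0.0563). The tricarboxylic acid cycle list had 0 calls among 35, 23 of them positive, and a median of 0.12. Its member mdh1aa, a malate dehydrogenase gene, was at 1.41 and 1.27 at 34 °C, against -0.28 and -1.27 at 18 °C (adjusted p = 0.0797). The 18 °C replicates of mdh1aa differed by more than its 34 °C replicates. The circadian clock list had 0 calls among 39, with differences from -2.18 to 2.36. Its smallest p was that of tefa at 0.31 (adjusted p = 0.0597), whose probes had both signs, from -0.46 to 1.24. Hypoxia genes had 0 among 22, with the smallest p for the prolyl hydroxylase gene egln3 at 0.75 (adjusted p = 0.0535). Interferon genes had 0 among 22, with the smallest p for the cytokine signal suppressor gene socs1a at -1.41 (adjusted p = 0.0536). Immediate early genes had 0 among 28, with the smallest p for mycb at -1.40 (adjusted p = 0.109). Tubulins and motors had 0 among 65, with differences from -3.25 to 0.55 and the smallest p for dynll2a at -0.75 (adjusted p = 0.0706). These values did not pass, which does not show that the genes were alike at both temperatures.

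The 26 °C samples of day 28 place each difference within the temperature range. Of the 172 features higher at 34 °C, 162 had their 26 °C mean between the other 2 means, and of the 176 lower ones 168 did, against 43.8% of all features. On a scale where the 18 °C mean is 0 and the 34 °C mean is 1, the median place of 26 °C was 0.52 for positive calls (quartiles 0.33 and 0.61). It was 0.40 for negative calls (quartiles 0.24 and 0.58). Because 26 °C replicates entered the pooled spread, a large gap within that pair made a call less likely. Calls were also chosen for a large gap between 34 and 18 °C, within which a 26 °C mean falls more easily. Of all features, 64.8% were within 0.1 of 0 on the direct array, so their share is not a like comparison. A graded response to temperature was not tested.

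Single genes lay near either end of that scale. The level of elovl6 averaged -1.66 at 18 °C, 0.71 at 26 °C and 0.75 at 34 °C, so nearly the whole difference lay between 18 and 26 °C. The same held for hmgn2, with -1.62 at 18 °C, 0.50 at 26 °C and 0.59 at 34 °C. For fabp7a the means were -2.30 at 18 °C, 0.83 at 26 °C and 1.25 at 34 °C. The desaturase fads2 had the other shape, with -1.37 at 18 °C, -0.62 at 26 °C and 2.03 at 34 °C. Likewise gtpbp4 averaged -0.90 at 18 °C, -0.64 at 26 °C and 1.68 at 34 °C. The retinol dehydrogenase rdh1 was nearly level over the cold step, at -0.65, -0.55 and 1.32 from 18 to 34 °C. Among lower genes, cox17 averaged 0.55 at 18 °C, 0.29 at 26 °C and -0.94 at 34 °C. Of the positive calls, 26 had 26 °C at a place between 0 and 0.25, next to 18 °C, and 15 at a place between 0.75 and 1, next to 34 °C. Of the negative calls, 39 lay next to 18 °C and 13 next to 34 °C in this sense. In 10 positive and 8 negative calls 26 °C lay beyond 18 °C, and in 0 did it lie beyond 34 °C.

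**Figure D4:**
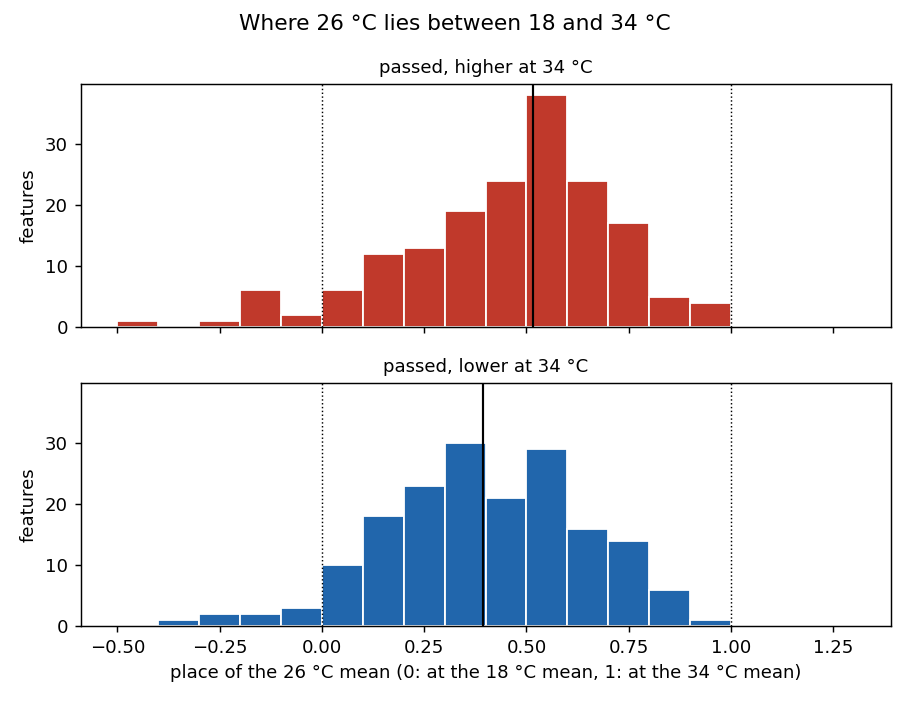
Histograms of where the mean 26 °C level lies between the 18 °C mean (0) and the 34 °C mean (1), for the 172 features higher at 34 °C (top) and the 176 lower at 34 °C (bottom); the vertical axis counts features, dotted lines mark 0 and 1 and the solid line the median. The medians are 0.52 and 0.40, and no feature lies above 1.

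One array joined 34 °C replicate 1 and 18 °C replicate 1 directly. Replicate 2 of both temperatures was joined by a path of 2 arrays through 26 °C replicate 2, which shares no array and no RNA sample with it. Of the 348 features that passed, 348 had the sign of the fit on the direct array and 346 on the path, and 346 had 1 sign on both, against 59.4% of all features. The exceptions were lig1, at -0.22 on the direct array and 0.03 on the path, and 1 probe with no symbol. With the fitted dye term subtracted, an alternative added after the data were seen, the counts were 348 of 348, against 54.9% of all features. The calls were chosen with these arrays in the fit, so these counts describe the arrays and are not independent support. Without the direct array limma passed 0 features (2261 at an unadjusted p below 0.05).

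Single genes differed in how close both routes came. For elovl2 the direct array gave 3.96 and the path 3.72, and for itgb1b.2 they gave 2.67 and 2.41. For uchl1 the direct array gave -2.42 and the path -1.75. Routes were farther apart for prdx2, at 3.17 on the direct array and 4.60 on the path, and its dye term of 0.69 enters the direct array once and the path 2 times. Less that term, prdx2 had 2.48 on the direct array and 3.22 on the path.

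**Figure D5:**
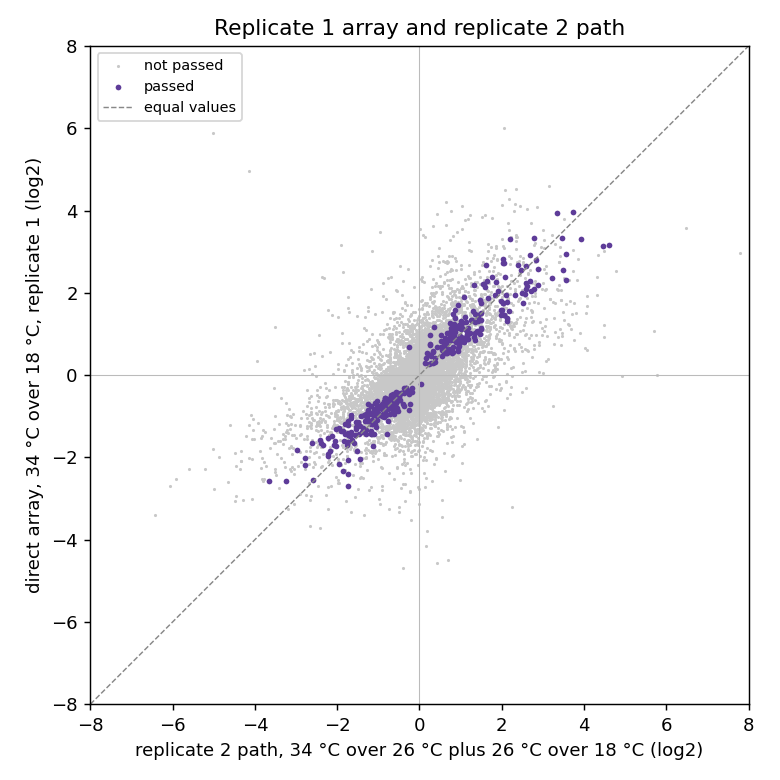
Each point is a feature, with its log2 ratio of 34 °C over 18 °C from replicate 2 by way of 26 °C on the horizontal axis and from the direct replicate 1 array on the vertical axis; purple points are the 348 that passed and the dashed line marks equal values. Of the purple points, 346 lie in the quadrants where both routes have 1 sign.

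Replicates of day 28 differed by similar amounts at each temperature. Over all features the SD of replicate 1 minus replicate 2 was 0.278 at 34 °C and 0.273 at 18 °C, and 0.226 at 26 °C. Both 34 °C samples stood on 1 side of both 18 °C samples in 36.9% of all features and in 46.8% of genes with a symbol. The same was true of 348 of the 348 that passed, as a small spread within pairs was needed to pass. Of the 279 genes that passed, 150 had several probes, and in 138 of these all probes had 1 sign, against 3632 of 6107 genes with several probes. The test was run on the mean of these same probes, so probes that agree made a call more likely. The counts are therefore no independent support. The other 129 genes that passed rest on 1 probe each, elovl2, fabp7a, rab1aa, uchl1 and parn among them. Probes of 1 sign could still differ widely in size, so some means join a nearly flat probe and a steep one.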

How the data were processed

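Log2 ratios of 43603 probes on 8 arrays were used as deposited. They were normalized before deposit, and the tool named in the submitters' processing notes is limma. The sources used here give neither the background correction nor the normalization method, nor the log base, taken as log2. Medians per array ran from -0.000725 to 0.00385, and SDs from 0.315 to 0.537. Without intensities, probes near background cannot be told from unchanged ones. Precision is limited by the number of arrays. No genome was used.

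Probes were named by the platform annotation, with symbols updated from RefSeq by Entrez ID (23534), by accession (42) or kept as given (141), which left 19886 unnamed. Probes of 1 symbol were averaged. The 8 ratios of each feature were solved by least squares for the 7 RNA samples and a dye term. limma 3.58.1 in R 4.3.3 (lmFit, eBayes; 3 residual and 1.63 prior degrees of freedom) then compared the 4 groups, two-sided, with Benjamini-Hochberg adjustment over 35434 features. Sample levels share arrays, which this step ignores. P-values measure the spread between these samples. The fit was run on simulated data with independent noise, a check of the code that does not measure error rates in these data.

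Named genes were the 20 largest calls in each direction outside the egg, hepatocyte and vitellogenin lists and clone names, up to 4 called members of each of 59 lists, and, in lists without a call, the member with the smallest p. The comparison, lists and rule were chosen with earlier results of these data known.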

Additional observations from a re-analysis of the deposited data

How the results depend on the processing

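The count of 348 calls depends on the processing. It was 0 with arrays scaled to one spread (4475 at an unadjusted limma p below 0.05) and 0 with the 18 and 34 °C samples only (4312). It was also 0 with the egg marker median as a covariate (2470 at an unadjusted p below 0.05), 226 over single probes, 572 without features within 0.1 of 0 on all arrays, and 2994 with limma on the arrays directly, which treats arrays as independent (1271 positive, 1723 negative). Without single day 28 samples or single arrays it ran from 0 to 246. With no dye term, medians over probes or centring on named features it was 314, 296 and 336. The labels do not say whether replicate numbers pair the samples. Deviations of replicate 1 correlated at 0.415 (34 and 26 °C), -0.133 (34 and 18 °C) and -0.151 (26 and 18 °C). These values do not settle it, as the sample levels share arrays. The fit with a replicate block called 237, of which 125 were among the 348. Signs turned in 5 of 29 named genes that did not pass, and in 0 of the 82 that did, whose signs several of these settings could not turn. With the egg covariate the differences were -0.0802 for hist2h2l, -0.0471 for mdh1aa, 0.32 for tnnt3a and 0.078 for ywhaz. Without single arrays they ran from -0.398 to 1.06 for egfl7, from -0.446 to 0.0402 for tnnt3a and from -0.428 to 0.0123 for ywhaz, and turned without either array of the 26 °C day 4 sample; egfl7 also turned without the array of 26 and 18 °C replicate 2. The cause of these shifts was not tested. Of 59 list medians, 22 kept their sign in every alternative run, several of which could not change a median, and 37 turned in at least 1. Among those that turned with the egg covariate were hepatocyte and intestine markers, selenoproteins, lipid droplets, the tricarboxylic acid cycle and aminoacyl-tRNA synthetases. The medians of retinoid and autophagy genes turned without single arrays. The egg covariate followed the temperature groups, so that fit cannot separate egg RNA from temperature. Leaving the day 4 sample out of the group comparison alone, after its arrays had been used to solve the levels, gave 348. Leaving out either of its arrays gave 0 (1952 at an unadjusted limma p below 0.05).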

Other observations

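Further members had the smallest p in a list without a call, and they are given as values that did not pass. The cell adhesion gene epcam, in the bile duct list, had -1.14 and -0.76 at 34 °C, against 1.86 and 1.00 at 18 °C (limma adjusted p = 0.0594). The lamin gene lmnb1, of the nuclear envelope, had -0.39 and -0.66 at 34 °C, against 0.29 and 0.61 at 18 °C, and all 3 of its probes were negative. The cofilin gene cfl1, which severs actin filaments, had -0.46 and -0.22 at 34 °C, against 0.25 and 0.27 at 18 °C. The macrophage gene mpeg1.1, which encodes a pore-forming protein, had 0.67 and 0.23 at 34 °C, against -0.64 and -0.48 at 18 °C (limma adjusted p = 0.0744). The apoptosis gene diabloa, a mitochondrial antagonist of caspase inhibitors, had 0.44 and 0.64 at 34 °C, against -0.29 and -0.58 at 18 °C. In all 5 genes the samples of both temperatures lay apart, as in 46.8% of genes with a symbol.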
